A study of Mus musculus with 4 samples.

Results

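The cells described here were T cells of CT26 tumours that carried RNA of Foxp3, the transcription factor that defines regulatory T cells. They were picked by a marker gate on unique molecular identifiers (UMIs, the count of distinct captured RNA molecules) in each cell barcode. A barcode entered with at least 2 UMIs of the T cell receptor complex genes Cd3d and Cd3e together, at least 1 of Foxp3 and at least 1 of Cd4 or Il2ra. It had to hold no UMI of Cd8a or Cd8b1 and fewer than 10 per 10000 UMIs of the macrophage genes C1qa, C1qb and C1qc. 364 cells passed, of 27447 kept barcodes and 4526 T cell barcodes, with 42 and 74 in control replicates 1 and 2 and 123 and 125 in liproxstatin replicates 1 and 2. The genes of the gate set the members, so their levels are described without a test.

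Regulatory T cells restrain other lymphocytes. They bind interleukin 2 through a high-affinity receptor that contains the Il2ra chain, block costimulation through Ctla4, and release inhibitory cytokines such as interleukin 10. In tumours they are known as an activated population rich in TNF receptor family members, such as Tnfrsf4 (OX40), Tnfrsf18 (GITR) and Tnfrsf9 (4-1BB), and they limit the antitumour activity of CD8 T cells.

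CT26 is a transplantable colon carcinoma line of the Balb/c mouse strain. All mice were Balb/c, 9 weeks old and tumour-bearing, and 2 libraries came from control mice and 2 from mice given liproxstatin-1, a small-molecule inhibitor of ferroptosis (iron-dependent death by lipid peroxidation), for 8 days. Leukocytes were enriched from the tumours with beads against the pan-leukocyte protein CD45, and RNA was counted by droplet single-cell sequencing of transcript 3' ends. The labels do not say what the control mice received or whether the replicates of a group were separate animals. Every p-value here therefore reflects how far the sequenced libraries scatter, and that scatter may be of technical origin alone.

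The kept barcodes numbered 3881 to 8709 per library. The Foxp3 cells held 439905, 800216, 1025633 and 1124669 UMIs in control replicates 1 and 2 and liproxstatin replicates 1 and 2, the order used for every set of 4 values below. Their median depth was 6746, 7368, 6171 and 5418 UMIs per cell, and their median mitochondrial share 2.44%, 2.44%, 2.80% and 2.64%. The shallower cells of the liproxstatin libraries give each cell a smaller chance of showing a given RNA. Between 3 and 19 kept barcodes were shared by any 2 libraries, and 0 of those of the Foxp3 cells.

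The gate selected cells that looked like regulatory T cells by genes it had not used. Foxp3 itself was found in 38 of 12099 macrophage barcodes (0.314%, median depths of 23769 to 30999 UMIs) and in 19 of 3030 CD8 T cell barcodes (0.627%, median depths of 11214 to 14750 UMIs). These shares serve as a background for Foxp3 RNA, and its source in those barcodes was not tested. Of 509 T cell barcodes with a Foxp3 UMI, 54 held too much C1q RNA, 54 held Cd8a or Cd8b1 and 37 lacked Cd4 and Il2ra. Il2ra was seen in 317 of the 364 cells, Cd4 in 242 and both in 195. Cells just inside the Foxp3 threshold, 77 with 1 UMI, had Ikzf2 in 97.4% and Ctla4 in 92.2%, against 97.9% and 95.8% of the 287 cells with 2 or more. The 295 conventional CD4 cells (Cd4 present, Foxp3 and Cd8 absent) had Ikzf2 in 37.3% and Ctla4 in 53.9%. They had to hold Cd4, whereas Il2ra without Cd4 could admit a Foxp3 cell. The gates therefore differ in that rule as well as in Foxp3. The other gate used for comparison held 3011 CD8 cells, with Cd8a or Cd8b1 present and Foxp3 and Cd4 absent. Cd40lg, the helper T cell ligand, ran the other way, in 30.8% of the conventional CD4 cells, 1.30% of those with 1 Foxp3 UMI and 5.57% of those with more.

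Cells of other lineages left traces in the gate. A marker is given as at 0 here only where no library held a UMI of it. Other markers could be absent from single libraries, as the neutrophil marker Retnlg was from both control libraries. Summed macrophage and monocyte markers outside the gate (Lyz2, Csf1r, Adgre1, Apoe and Fcgr1) stood at 439, 1592, 1300 and 1444 UMIs per 1000000 UMIs of the gate (CPM), none of the 5 at 0. Neutrophil markers summed to 900, 497, 1038 and 95.1 CPM, none of the 5 at 0. The mast cell and basophil list read 4.55, 401, 0 and 1.78 CPM, with Mcpt8 at 0, and the B and plasma cell list 2.27, 96.2, 1.95 and 8.89 CPM with none at 0. The NK list read 152, 10.0, 0.975 and 21.3 CPM with Klra8 at 0, the gamma-delta T list 18.2, 17.5, 16.6 and 5.33 CPM with Sox13 and Il17a at 0, the dendritic list 40.9, 27.5, 4.88 and 1.78 CPM with Siglech at 0, and the fibroblast and tumour list 11.4, 10.0, 2.93 and 78.2 CPM with Krt8 at 0. Doublet calls took 2, 4, 7 and 7 of the cells, and 3, 9, 10 and 7 carried at least 20 UMIs per 10000 of other-lineage markers. Their part in the results was not tested beyond the values given beside each of them, with these cells left out.

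Ikzf2, which encodes the transcription factor Helios, was found in 95.9% to 99.2% of the Foxp3 cells of each library. Its levels in the Foxp3 cells were 1562, 1111, 1852 and 1186 CPM, those in the conventional CD4 cells 418, 208, 375 and 307 CPM, and those in the CD8 cells 289, 188, 236 and 221 CPM. Every Foxp3 value lay above every value of the other gates. Ctla4, the inhibitory receptor for CD80 and CD86, read 980, 719, 1709 and 1182 CPM against 387, 133, 969 and 579 CPM in conventional CD4 cells and 210, 122, 394 and 318 CPM in CD8 cells. Here the liproxstatin replicate 1 value of the conventional CD4 cells overlapped the Foxp3 range, although within each library the Foxp3 cells were higher. Tnfrsf4, a costimulatory receptor, read 1366, 1157, 1715 and 1200 CPM against 510, 623, 575 and 651 CPM and 140, 148, 191 and 214 CPM, with no overlap. Of the gate genes, Foxp3 read 411, 336, 455 and 333 CPM and Il2ra 332, 412, 542 and 292 CPM in the Foxp3 cells. The plot of markers by gate shows these levels with 9 other genes.

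**Figure D1:**
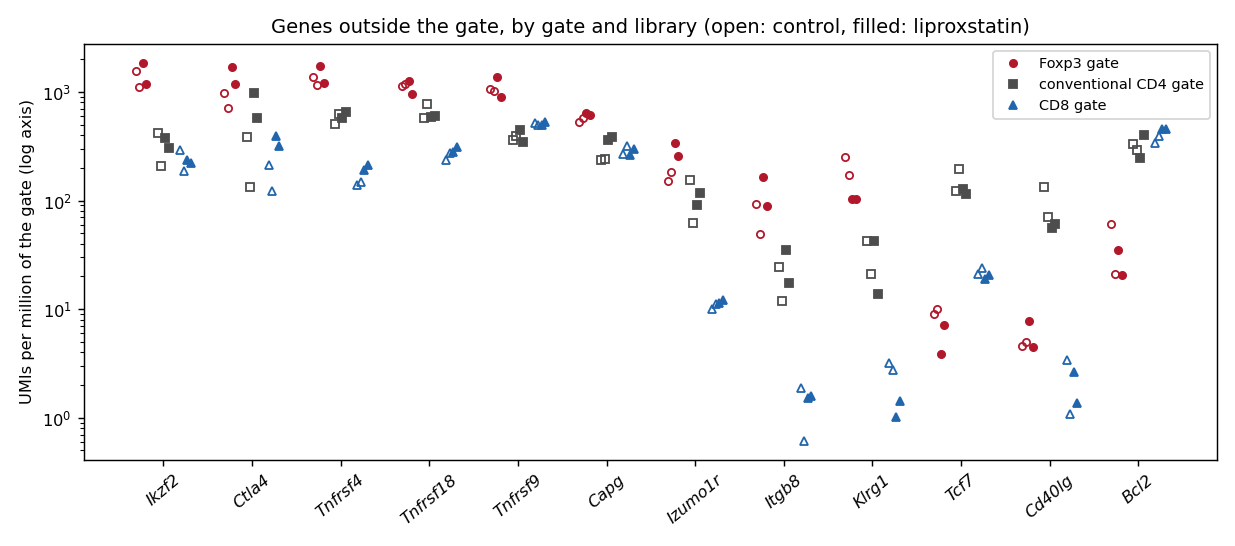
Levels of 12 genes outside the gate, in CPM on a log axis, in the Foxp3 cells (circles), conventional CD4 cells (squares) and CD8 cells (triangles). Each symbol is 1 library, open for control and filled for liproxstatin. Ikzf2, Tnfrsf4, Tnfrsf18, Tnfrsf9, Capg and Itgb8 were highest in the Foxp3 cells, and Tcf7 and Bcl2 lowest.

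Against conventional CD4 cells of the same library, the Foxp3 cells had more RNA of the regulatory core genes and less of the genes of naive and helper T cells. Of 8398 genes tested, 849 differed (10.1%), with 367 higher in the Foxp3 cells (4.37%) and 482 lower (5.74%), by edgeR's quasi-likelihood test with Benjamini-Hochberg adjustment and a threshold of 0.05, averaged over the 4 libraries, and 1818 had an unadjusted p under 0.05 (21.6%). 10 of 14 tested regulatory core genes were higher and 0 lower, with a median log2 fold change of 1.06 against 0.02 over all genes tested. Ikzf2 was 2.02 ± 0.11 higher on the log2 scale (SE, n = 4 libraries, adjusted p = 8.10e-10 by edgeR), Ctla4 by 1.27 ± 0.15 and Tnfrsf4 by 1.07 ± 0.12. The other costimulatory TNF receptors followed, Tnfrsf1b (TNF receptor 2) by 1.49 ± 0.14, Tnfrsf9 by 1.35 ± 0.10 and Tnfrsf18 by 0.71 ± 0.09 (SE, n = 4 libraries). Ikzf4 (Eos, a partner of Foxp3) was higher by 1.55 ± 0.24, the actin-capping gene Capg by 0.86 ± 0.09, and the folate receptor 4 gene Izumo1r by 1.04 ± 0.24. Lrrc32 (GARP, which tethers latent TGF-beta) was higher by 1.93 ± 0.50, yet its 4 values of 77.3, 7.50, 66.3 and 24.0 CPM were uneven, and in control replicate 2 the Foxp3 cells lay below the 8.96 CPM of the conventional CD4 cells. Icos, Il2rb, Socs2 and Nrp1 did not pass the test (log2 fold changes of 0.21, 0.30, -0.41 and -0.95; edgeR adjusted p = 0.234, 0.112, 0.168 and 0.0791). Nrp1, often used to mark regulatory T cells that arise in the thymus, read 4.55, 27.5, 18.5 and 15.1 CPM, below the conventional CD4 cells in each library.

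Of 16 genes of suppression 4 were higher and 0 lower, with 14 positive and a median log2 fold change of 0.90, and 7 were higher when control replicate 2 was left out. The 4 were Itgb8 (an integrin chain that frees active TGF-beta, 2.00 ± 0.24, SE, n = 4 libraries), the inhibitory receptor Tigit (1.91 ± 0.36), the ectonucleotidase Entpd1 (CD39, 0.87 ± 0.22) and the galectin Lgals1 (0.49 ± 0.08). The cytokine genes did not pass. Il10 read 118, 112, 59.5 and 43.6 CPM in the Foxp3 cells and 7.03, 14.9, 160 and 7.51 CPM in the conventional CD4 cells (1.34 ± 0.74, edgeR adjusted p = 0.396), and 1 cell held 84.6% and 71.1% of its UMIs in the control Foxp3 cells. Ebi3 (a chain of interleukin 35, 0.44 ± 0.28) and Tgfb1 (-0.11 ± 0.13) did not pass (edgeR adjusted p = 0.409 and 0.695). Gzmb (granzyme B), at 1894, 745, 927 and 766 CPM, was above the conventional CD4 cells in all 4 libraries but did not pass (1.39 ± 0.36, edgeR adjusted p = 0.112).

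Of 15 genes of tissue-resident effector regulatory cells, 7 were higher, 0 were lower and 8 did not pass, with a median log2 fold change of 0.67. The count of higher genes was 3 of 16 when control replicate 2 was left out and 5 of 16 when control replicate 1 was. Itgae, the CD103 integrin chain that binds epithelial E-cadherin, read 84.1, 75.0, 103 and 70.2 CPM against 14.1, 14.9, 21.9 and 10.0 CPM (2.31 ± 0.27, SE, n = 4 libraries). Klrg1, an inhibitory lectin-like receptor of terminally differentiated cells, read 250, 171, 103 and 103 CPM against 42.2, 20.9, 42.0 and 13.8 CPM (2.28 ± 0.23). Ccr8, the chemokine receptor used to mark tumour regulatory T cells, read 63.7, 38.7, 74.1 and 51.6 CPM against 17.6, 13.4, 38.7 and 36.3 CPM (1.06 ± 0.24). Prdm1 (Blimp-1, 1.38 ± 0.22), Batf (0.89 ± 0.24), Nfil3 (0.66 ± 0.18) and Ikzf3 (0.64 ± 0.19), which encode transcription factors of effector lymphocytes, completed the 7. Gata3 (-0.10, edgeR adjusted p = 0.748), Maf (0.62, 0.0705) and the interleukin 33 receptor gene Il1rl1 (0.82, 0.0945) did not pass.

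Genes outside the lists were chosen by size of change. Bmyc, a Myc relative, read 291, 282, 387 and 298 CPM in the Foxp3 cells against 35.1, 80.7, 60.5 and 66.3 CPM in conventional CD4 cells (2.19 ± 0.18, SE, n = 4 libraries). Rln3, the relaxin 3 gene, read 164, 201, 204 and 188 CPM against 14.1, 62.7, 5.04 and 18.8 CPM (2.86 ± 0.52, edgeR adjusted p = 0.0319) and was found in 37.6% to 40.5% of the Foxp3 cells of each library. It lies on chromosome 8 (84042929 to 84045000, minus strand, GRCm38). Neb (nebulin, 2.32 ± 0.25), Rapsn (rapsyn, 2.42 ± 0.36), both known from muscle, Lamc1 (a laminin chain, 2.11 ± 0.25), Ighm (2.08 ± 0.21), Jdp2 (1.97 ± 0.33), the fractalkine receptor gene Cx3cr1 (1.91 ± 0.37), Pglyrp1 (1.78 ± 0.24) and the phosphatidylcholine synthesis gene Pcyt1a (1.71 ± 0.21) were also higher (SE, n = 4 libraries). Ptgs2 (cyclooxygenase 2, 2.73 ± 0.61) was higher too, but its RNA came from 1, 4, 4 and 11 cells.

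The genes that were lower mark naive, central memory and helper cells. 9 of 15 naive and central memory genes were lower and 0 higher, with a median of -1.40. Tcf7 (TCF-1, a factor of quiescent and memory T cells) read 9.09, 10.0, 3.90 and 7.11 CPM against 123, 194, 128 and 115 CPM, a log2 fold change of -4.39 ± 0.23 (SE, n = 4 libraries, edgeR adjusted p = 4.29e-10). Bcl2, which protects from apoptosis, read 61.4, 21.2, 35.1 and 20.5 CPM against 334, 291, 249 and 398 CPM (-3.43 ± 0.34). Lef1 (-1.45 ± 0.17), S1pr1 (the receptor for exit from tissue, -2.17 ± 0.26), Klf2 (its activator, -1.30 ± 0.12), Bach2 (-2.46 ± 0.48), Satb1 (-1.40 ± 0.13), Foxp1 (-1.31 ± 0.17) and Dapl1 (-4.64 ± 0.68) were lower as well.

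6 of 11 helper genes were lower and 0 higher, against 2 of 12 when control replicate 2 was left out and 3 of 12 when control replicate 1 was. Cd40lg read 4.55, 5, 7.80 and 4.45 CPM against 134, 70.2, 55.5 and 61.3 CPM (-3.90 ± 0.34, SE, n = 4 libraries). The type 2 cytokine genes were at or near 0 in the Foxp3 cells. Il13 had 0 UMIs in the Foxp3 cells and 327 in the conventional CD4 cells, and Il5 had 0 against 128, so with a floor of 3 counts over the gate they were at least 157-fold and at least 61.6-fold lower. Il4 had 1 UMI against 41. Il2, whose RNA regulatory T cells are known to lack, read 2.27, 2.50, 0 and 0.889 CPM (edgeR adjusted p = 0.0310), but in conventional CD4 cells 1 cell of control replicate 2 held 97.8% of its RNA there. Il12rb2 was lower by -1.23 ± 0.37 on the log2 scale. The TNF superfamily ligand gene Tnfsf8 (CD30 ligand) read 0, 5, 0.975 and 8.89 CPM against 105, 214, 277 and 279 CPM (-5.86 ± 0.50). Igfbp7 (-4.26 ± 0.47), the Rab GTPase activator Tbc1d4 (-3.73 ± 0.39), Ccl24 (-3.40 ± 0.58) and Ccl1 (-7.83 ± 1.22) were among the 10 largest decreases, with 83.4% and 49.3% of the Ccl1 RNA of the liproxstatin conventional CD4 cells in 1 cell each.

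Homing and signalling lists were mixed, where 4.37% of all genes tested were higher than in conventional CD4 cells and 5.74% lower. Of 13 homing receptors, 3 were higher, with Ccr2 (0.54 ± 0.12) and Cx3cr1 among them, and 4 lower, Cxcr4 (-1.14 ± 0.12), Cxcr6 (-3.30 ± 0.24), Gpr183 (-1.34 ± 0.10) and Itgb1 (-1.63 ± 0.22) (SE, n = 4 libraries). 6 of 21 cell cycle genes were higher and 0 lower, among them the mitotic genes Ube2c (1.45 ± 0.21) and Ccnb1 (1.74 ± 0.39). Leaving out either control library reduced that number to 1, and leaving out liproxstatin replicate 2 raised it to 15. 7 of 19 interferon-stimulated genes were lower and 0 higher, such as Gbp2 (-1.30 ± 0.18) and Ifit3 (-1.39 ± 0.23, uncertain because of a near-identical copy). 3 of 14 glucocorticoid-inducible genes were higher (Ddit4, Mt1, Mt2) and 6 lower, Zfp36l2 (-1.21 ± 0.09) and Tsc22d3 (-0.72 ± 0.11) among them. Of the interleukin 2 signalling list, Pim1 and Bcl2l1 were higher and Socs1 lower, 3 of 13 in all. For the T cell receptor activation list 2 of 16 were higher (Nr4a1, Nfkbia) and 2 lower (Cd69, Tnfaip3), for the checkpoint list 1 of 11 higher (Tox) and 3 lower (Cd28, Cd96, Cd226), for the ferroptosis defence list 0 of 13, for the ferroptosis-promoting list 3 of 13 higher (Ptgs2, Sat1, Tfrc), for lipid metabolism 1 of 10 higher, and for the dissociation stress list 1 of 16 higher and 4 lower. Without control replicate 2 the higher genes numbered 1 in the homing, 1 in the glucocorticoid-inducible and 0 in the ferroptosis-promoting list, and the interferon genes that were lower numbered 4 without control replicate 1 or liproxstatin replicate 2. Without control replicate 2 the comparison gave 365 genes in place of 849, and without control replicate 1 it gave 432. The conventional CD4 gate may hold regulatory T cells whose Foxp3 RNA was missed, a share that was not tested beyond its 37.3% of cells with Ikzf2.

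Against CD8 cells of the same library the contrast was wider. 2461 of 8398 genes differed (29.3%), 1274 higher in the Foxp3 cells (15.2%) and 1187 lower (14.1%), by edgeR's quasi-likelihood test with Benjamini-Hochberg adjustment, and 3275 had an unadjusted p under 0.05 (39%). 12 of 14 regulatory core genes were higher, with Izumo1r at 152, 185, 342 and 259 CPM against 10.0, 11.1, 11.3 and 12 CPM (4.14 ± 0.23, SE, n = 4 libraries). Il2rb, the interleukin 2 receptor chain shared with memory CD8 cells, was the 1 core gene that was lower (-1.14 ± 0.11). Of 15 tissue effector genes, 11 were higher, such as Klrg1 (6.01 ± 0.21), Itgae (5.77 ± 0.23), Maf (4.44 ± 0.19), Il1rl1 (4.39 ± 0.28) and Rora (3.46 ± 0.20), and Id2 was lower (-1.06 ± 0.22). Itgae pairs with Itgb7, whose RNA read 273, 329, 323 and 253 CPM in the Foxp3 cells and 22.6, 22.7, 22.3 and 18.2 CPM in the CD8 cells (3.58 ± 0.11, edgeR adjusted p = 3.64e-14). In the suppression list 7 of 16 were higher and 4 lower. Itgb8 (5.90 ± 0.22), Ebi3 (4.68 ± 0.28), Il10 (7.45 ± 0.78), Il1r2 (a decoy receptor for interleukin 1, 2.87 ± 0.48), the epidermal growth factor receptor ligand Areg (2.53 ± 0.61), Tigit (1.06 ± 0.22) and Cd274 were higher. The perforin gene Prf1 (-3.76 ± 0.84), Havcr2 (TIM-3, -2.30 ± 0.17), Lag3 (-1.23 ± 0.16) and Entpd1 (-0.51 ± 0.15) were lower. Gzmb, the other main cytotoxic gene, read 802, 1105, 845 and 842 CPM in the CD8 cells and was not told apart (-0.04 ± 0.34, edgeR adjusted p = 0.948).

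Interferon-stimulated genes were higher in the Foxp3 cells than in the CD8 cells of the same tumours, 17 of 19 with 0 lower and a median of 1.10. Over all genes tested 15.2% were higher and 14.1% lower. Isg15 read 375, 239, 404 and 242 CPM against 128, 89.7, 84.8 and 102 CPM (1.41 ± 0.19, SE, n = 4 libraries). 9 of 13 genes of interleukin 2 signalling were higher and 0 lower, with Pim1 (2.35 ± 0.09), Cish (1.64 ± 0.14), Socs3 (0.66 ± 0.20) and Bcl2l1 (1.38 ± 0.16) among them. Of the homing receptors 7 of 13 were higher, led by Ccr4 (5.67 ± 0.46) and with Ccr2 at 3.01 ± 0.11, and 6 lower, with Cxcr6 at 56.8, 26.2, 7.80 and 11.6 CPM against 491, 517, 410 and 389 CPM (-4.73 ± 0.22). 6 of 11 checkpoint genes were lower, among them Pdcd1 (PD-1, -2.16 ± 0.18), and 2 higher (Btla, Vsir), which were 0 without control replicate 1 or liproxstatin replicate 1. 7 of 21 cell cycle genes were lower and 0 higher, a count that was 0 without control replicate 2, 1 without control replicate 1 and 12 without liproxstatin replicate 2.

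Among the remaining lists against CD8 cells, naive and central memory genes split 6 higher and 4 lower of 15, helper genes 3 higher and 3 lower of 11, T cell receptor activation genes 9 higher and 4 lower of 16, glucocorticoid-inducible genes 6 higher and 2 lower of 14, dissociation stress genes 4 higher and 4 lower of 16, and lipid metabolism genes 4 higher of 10. With 1 library left out the lipid metabolism count was 0 of 12 (control replicate 2) or 2 of 11 (liproxstatin replicate 1). The helper genes that were higher numbered 1 without control replicate 1, control replicate 2 or liproxstatin replicate 1, and the activation genes that were lower numbered 2 when either liproxstatin library was left out. Of 13 ferroptosis defence genes 3 were higher, the lipid hydroperoxide reductase gene Gpx4 (0.59 ± 0.10, SE, n = 4 libraries, 484, 496, 395 and 496 CPM against 260, 282, 255 and 281 CPM), the cystine transporter gene Slc7a11 (1.42 ± 0.52, under 12 CPM) and Nfe2l2 (0.68 ± 0.18), and 1 of 15 was without control replicate 1. Of 13 ferroptosis-promoting genes Lpcat3, Ptgs2 and Sat1 were higher and Slc39a14 lower. Beside these list counts, 15.2% of all genes tested were higher than in CD8 cells and 14.1% lower. Against CD8 cells, by size of change, Rln3 (5.71 ± 0.45), Trat1 (4.73 ± 0.26), Ass1 (3.90 ± 0.14), Bmyc (3.70 ± 0.16), Tspan32 (3.47 ± 0.15) and Lrrc32 (7.90 ± 0.56) were high in the Foxp3 cells. Galnt18, Smyd1 and Gzmg had 0 UMIs in them, at least 25.2-fold, 13.6-fold and 41.9-fold lower than in CD8 cells with a floor of 3 counts over the gate (Gzmg is uncertain because of its paralogs). Without control replicate 2 the count was 1571.

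The Foxp3 cells differed among themselves. To compare shares of cells, each cell was thinned at random to 2500 UMIs, which kept 355 cells (41, 73, 122 and 119), and macrophages thinned in the same way gave the background. Ikzf2 was found in 90.2%, 84.9%, 93.4% and 91.6% of the thinned cells, against 0.421% to 0.780% of macrophages, and Tnfrsf9 in 78.0%, 74.0%, 86.1% and 74.0%, against 1.47% to 2.27%. Most cells of every library carried each of these genes. Gzmb was found in 53.7%, 50.7%, 54.9% and 49.6% (1.25% to 2.46% of macrophages). Cxcr3, a receptor of type 1 inflamed sites, was found in 26.8%, 31.5%, 26.2% and 23.5% (0.395% to 0.772%), and Pdcd1 in 26.8%, 16.4%, 23.8% and 34.5% (0.197% to 0.311%). Smaller shares carried the repair factor Areg (22.0%, 11%, 18.0% and 15.1%, with 0.223% to 0.565% of macrophages), Tcf7 or Lef1 (9.76%, 16.4%, 13.1% and 16.0%, with 0.0702% to 0.296%), Ccr8 (12.2%, 8.22%, 17.2% and 11.8%, with 0% to 0.0329%), Il10 (9.76%, 9.59%, 10.7% and 9.24%, with 0.421% to 0.988%) and Il1rl1 (9.76%, 12.3%, 4.10% and 11.8%, with 0.0702% to 0.480%). Ebi3, at 14.6%, 9.59%, 6.56% and 7.56%, was near the 5.16% to 7.86% of macrophages, whereas thinned CD8 cells carried it in 0%, 0.135%, 0.110% and 0.0951%. Proliferation genes Mki67 or Top2a, which macrophages express too, were found in 17.1%, 17.8%, 20.5% and 21.0%.

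**Figure D2:**
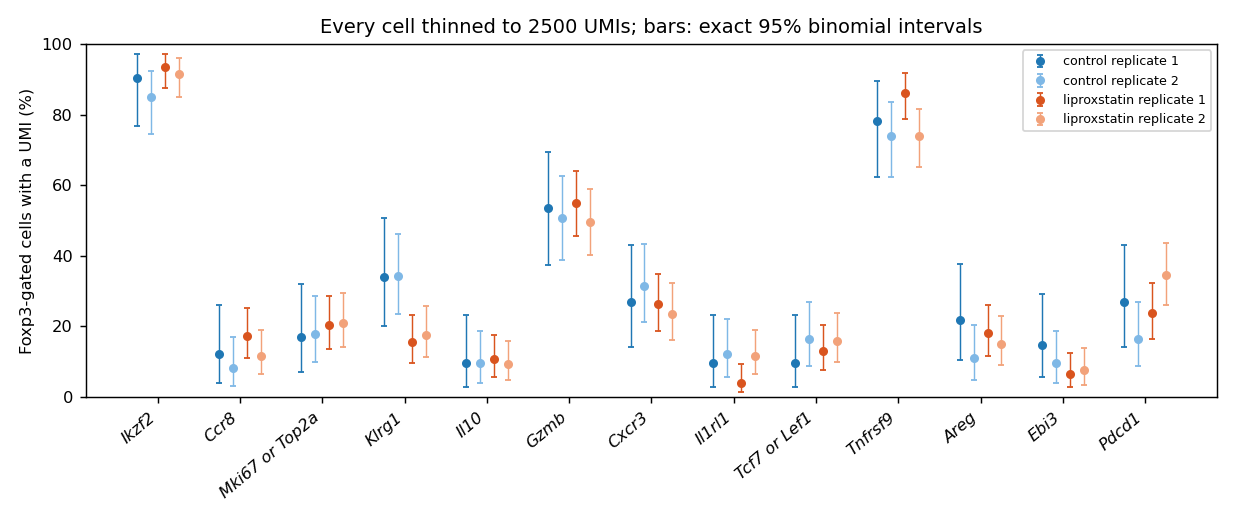
Share of Foxp3 cells with at least 1 UMI of each gene or pair after thinning to 2500 UMIs, in percent, per library, with exact 95% binomial intervals that cover counting error only. Ikzf2 and Tnfrsf9 were in most cells of every library. Klrg1 was at 34.1% and 34.2% in control and 15.6% and 17.6% in liproxstatin. The groups did not overlap for Ikzf2, Mki67 or Top2a, Cxcr3 and Ebi3 either.

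Klrg1 marked a subset of the cells, and 2 libraries on each side could not show whether its share differed between the groups. It was found in 34.1% (95% exact interval 20.1% to 50.6%) and 34.2% of the thinned control cells and 15.6% and 17.6% of the thinned liproxstatin cells, with at most 0.281% in macrophages. The groups did not overlap, and neither did they for Ikzf2, Mki67 or Top2a, Cxcr3 and Ebi3 among the thinned shares. A two-sided exact permutation gave p = 0.33, and no lower value can be had with 2 libraries on each side. Without thinning the shares were 45.2%, 51.4%, 29.3% and 31.2%. In the summed counts its log2 fold change was -1.01 ± 0.25 (SE, n = 2 per group), which did not pass (edgeR adjusted p = 0.319). As a description over all 355 cells, Il1rl1 was found in 17.7% of Klrg1 cells against 6.52% of others. Cxcr3 was found in 15.2% against 29.7%, and 11.4% of the cells with Mki67 or Top2a had Klrg1 against 24.9% of the rest. 23.9% of the 322 cells with Ikzf2 and 6.06% of the 33 without had Klrg1. These pairs pool cells of 4 libraries that differ in Klrg1, and no test was made.

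The share of Foxp3 cells was not told apart between the groups. They were 8.84%, 6.72%, 9.06% and 7.85% of the T cell barcodes, a mean of 7.78% ± 1.5 in control and 8.46% ± 0.861 in liproxstatin (SD, n = 2, exact permutation p = 0.6667, two-sided). Of all kept barcodes they were 1.08%, 1.12%, 1.5% and 1.44%, a mean of 1.10% ± 0.0236 against 1.47% ± 0.0427 (SD, n = 2, exact permutation p = 0.33, the lowest that can be had). Both liproxstatin values of the share of all cells lay above both control values. The direction did not hold when every barcode was thinned to 5000 UMIs before gating, where the mean was 0.838% ± 0.0597 against 0.816% ± 0.175 of all barcodes and 5.52% ± 1.14 against 4.79% ± 0.988 of T cell barcodes (SD, n = 2). Without control replicate 2 the difference in the share of T cells was -0.387 percentage points.

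**Figure D3:**
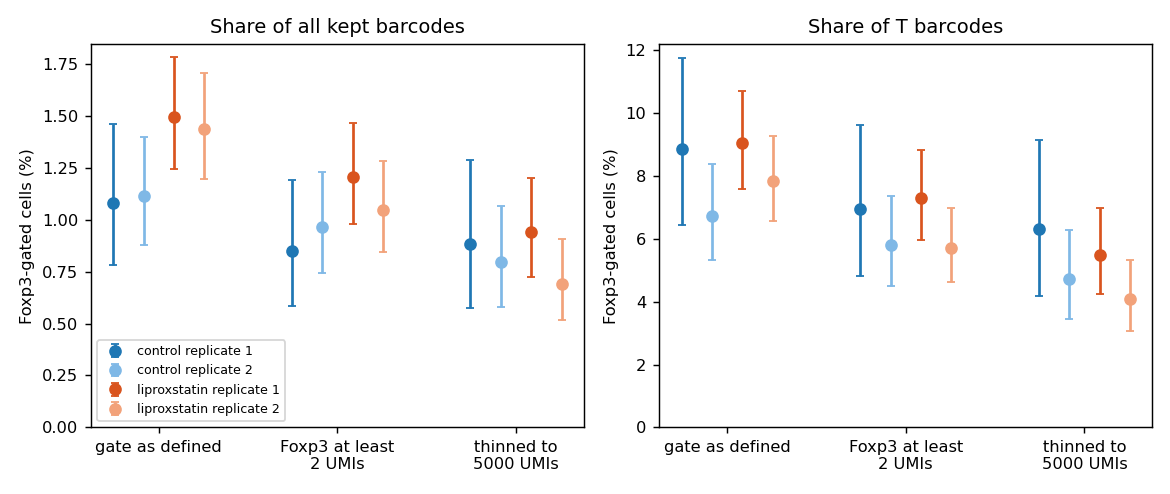
Foxp3 cells as a percentage of all kept barcodes (left) and of T cell barcodes (right), per library, with exact 95% binomial intervals that cover counting error only. The gate as defined is shown beside a gate of at least 2 Foxp3 UMIs and a gate applied after thinning to 5000 UMIs, where the liproxstatin shares of all kept barcodes no longer lie above the control shares. In the share of T cell barcodes the groups overlap in the gate as defined as well.

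With liproxstatin-1 the RNA of Zfp36l2 and Tsc22d3 rose in the Foxp3 cells. Of 7569 genes tested in them, 4 passed (0.0528%), 3 higher (0.0396%) and 1 lower (0.0132%), by edgeR's quasi-likelihood test with Benjamini-Hochberg adjustment, and 250 had an unadjusted p under 0.05 (3.30%). Zfp36l2 (chromosome 17, 84183931 to 84187947, minus strand, GRCm38), which encodes a protein that binds AU-rich elements and promotes mRNA decay, read 336, 199, 1279 and 921 CPM. It was found in 71.4%, 74.3%, 94.3% and 92.8% of the cells, and no cell held more than 18.2% of its RNA in a library. The log2 fold change was 2.05 ± 0.26 (SE, n = 2 per group, edgeR adjusted p = 0.00415). Tsc22d3 (chromosome X, 140539528 to 140600659, minus strand), the glucocorticoid-induced leucine zipper that restrains NF-kappaB and AP-1, read 116, 105, 327 and 275 CPM and was found in 54.8%, 48.6%, 83.7% and 78.4% of the cells. Its log2 fold change was 1.45 ± 0.24 (SE, n = 2 per group, edgeR adjusted p = 0.0214). Both liproxstatin values lay above both control values for each gene, as they did for 14.3% of all genes tested.

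The same 2 genes were read in the neighbouring T cells, where treatment was not tested by itself. Zfp36l2 read 952, 606, 1608 and 1738 CPM in conventional CD4 cells and 322, 209, 1250 and 1084 CPM in CD8 cells. Tsc22d3 read 179, 191, 446 and 362 CPM and 58.4, 55.6, 198 and 186 CPM. In both gates the liproxstatin values lay above the control values, and Tsc22d3 in the Foxp3 cells lay between the other gates in each library.

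Tsc22d3 is a textbook target of the glucocorticoid receptor, which binds repeats of the short motif AGAACA, so 1 of its promoter windows is shown. RefSeq windows of 250 bases before to 50 after a start were searched for it on both strands, overlaps allowed. Of 3 windows for Tsc22d3, the one shown held 1 match, 185 bases before the start, on the reverse strand and printed in capitals, and the other two held none. Among all 32851 windows of this length, 19.0% held it. That share is per window, and a gene with 3 windows has more places for a match. Binding was not tested. The window is chrX:140600473-140600772 on the minus strand of GRCm38.p6, written 5′ to 3′ along the gene.
Tsc22d3: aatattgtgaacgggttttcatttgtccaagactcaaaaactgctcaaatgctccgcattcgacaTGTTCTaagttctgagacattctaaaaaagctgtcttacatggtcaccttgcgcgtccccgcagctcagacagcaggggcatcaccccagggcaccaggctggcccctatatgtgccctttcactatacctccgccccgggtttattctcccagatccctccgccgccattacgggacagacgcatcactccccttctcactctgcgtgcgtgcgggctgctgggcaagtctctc

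The other 2 calls rested on few cells. Cxcl10, a chemokine gene induced by interferon, read 36.4, 37.5, 163 and 231 CPM (2.41 ± 0.30, SE, n = 2 per group, edgeR adjusted p = 0.00163). It was found in 9, 11, 19 and 20 cells, and 1 cell held 77.8% and 40.4% of its RNA in the liproxstatin libraries. H2-Aa, an MHC class II chain that T cells of mice make little of, read 516, 850, 253 and 169 CPM (-1.71 ± 0.27, edgeR adjusted p = 0.0268), and 1 cell held 94.7%, 58.4%, 62.9% and 54.2% of its RNA. The dendritic cell markers were also lower in both liproxstatin libraries, at 40.9, 27.5, 4.88 and 1.78 CPM in the Foxp3 cells with Siglech at 0. The macrophage and monocyte markers were not, at 439, 1592, 1300 and 1444 CPM. The B and plasma cell list read 2.27, 96.2, 1.95 and 8.89 CPM. The part of any of these lineages in H2-Aa was not tested. With doublets left out H2-Aa still passed (-3.3, edgeR adjusted p = 0.0478). With the cells rich in other-lineage markers left out, H2-Aa no longer passed (-2.37, edgeR adjusted p = 0.999), whereas Zfp36l2 (2.15, 0.000981), Tsc22d3 (1.42, 0.0152) and Cxcl10 (2.66, 0.000402) did. In a gate of at least 2 Foxp3 UMIs none of the 4 passed, with Zfp36l2 at 2.13 (edgeR adjusted p = 0.148), Tsc22d3 at 1.35 (0.173) and Cxcl10 at 1.47 (1.00). Over all alternatives the adjusted p ranged from 1.88e-15 to 0.148 for Zfp36l2, 4.53e-05 to 0.173 for Tsc22d3, 1.93e-12 to 1.00 for Cxcl10 and 1.33e-09 to 1.00 for H2-Aa.

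**Figure D4:**
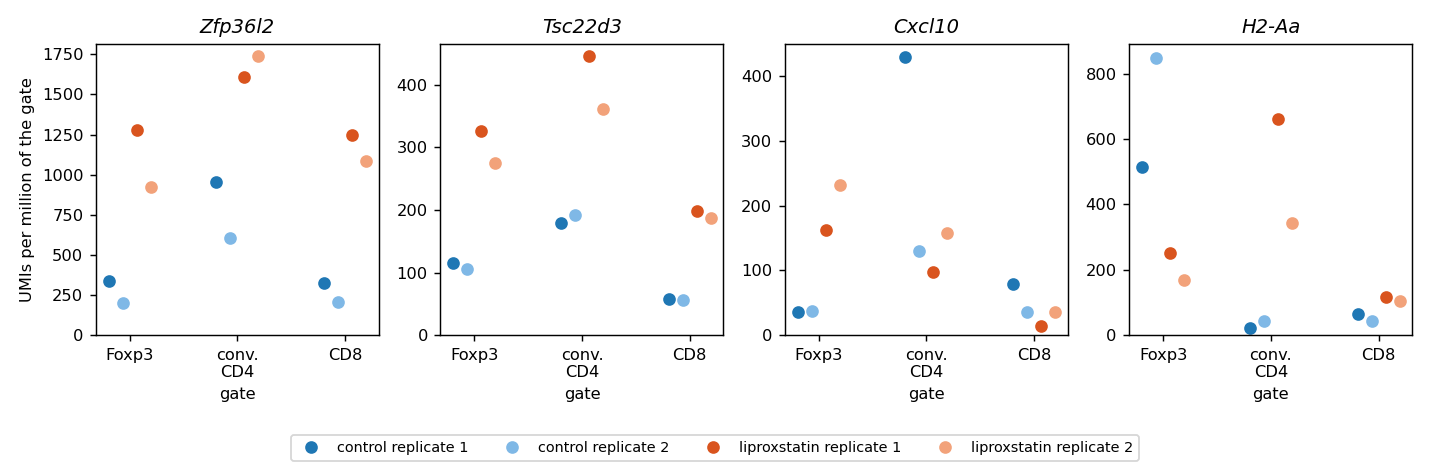
The 4 genes that passed the test of treatment in the Foxp3 cells, in CPM, in the Foxp3, conventional CD4 and CD8 cells. Each point is 1 library. Zfp36l2 and Tsc22d3 were higher in both liproxstatin libraries of all 3 gates, whereas Cxcl10 and H2-Aa did not run the same way in the 3 gates.

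Next in order of p, and not passing, came Sgip1, an endocytosis adaptor gene, at 4.55, 12.5, 52.7 and 46.2 CPM and in 2.38%, 4.05%, 20.3% and 16.8% of the cells (2.36 ± 0.44, SE, n = 2 per group, edgeR adjusted p = 0.0611). The others were genes best known from myeloid and antigen-presenting cells. Wfdc17 read 102, 130, 35.1 and 47.1 CPM, Napsa 97.7, 43.7, 13.7 and 16.0 CPM, Cd74 955, 1280, 481 and 565 CPM, Clec10a 36.4, 12.5, 0.975 and 0.889 CPM, and Ms4a7 15.9, 16.2, 49.7 and 76.5 CPM, with edgeR adjusted p of 0.0652, 0.0652, 0.0732, 0.105 and 0.0652. Napsa, Cd74 and Clec10a were low in the same libraries as the dendritic markers, whose part in these values was not tested. In control replicate 1 a single cell held 89.5% of the Cd74, 93.8% of the Clec10a and 72.1% of the Napsa RNA. For Ms4a7 it was 58.8% and 58.1% in the liproxstatin libraries, and for Wfdc17 at most 45.2% (control replicate 2). With doublets left out Ms4a7 stood at -0.0689.

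The glucocorticoid-inducible list was the 1 list with called genes. It was chosen with earlier results of these data known, so the counts below describe the list and do not test it. Zfp36l2 and Tsc22d3 rose, 12 of 14 did not pass, and all 14 had positive log2 fold changes, with a median of 0.79, where 50.4% of all genes were positive with a median of 0.00. Libraries did not overlap, liproxstatin higher, for 11 of the 14, against 14.3% of all genes tested. The kinase gene Sgk1 read 29.6, 20, 63.4 and 46.2 CPM (1.19 ± 0.35, SE, n = 2 per group), the glucocorticoid receptor gene Nr3c1 159, 111, 249 and 206 CPM (0.77 ± 0.25), the mTORC1 inhibitor gene Ddit4 264, 140, 386 and 313 CPM (0.81 ± 0.27), and Txnip 84.1, 185, 228 and 301 CPM (0.94 ± 0.33), with edgeR adjusted p from 0.574 to 1.00. Klf9 (13.6, 3.75, 15.6 and 25.8 CPM, 1.46 ± 0.60) and Fkbp5 (18.2, 23.7, 48.8 and 28.5 CPM, 0.83 ± 0.39) are classic targets (SE, n = 2 per group). Their RNA levels were low, and neither passed. With doublets left out 12 of 13 were positive, and without control replicate 2 also 12 of 14.

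**Figure D5:**
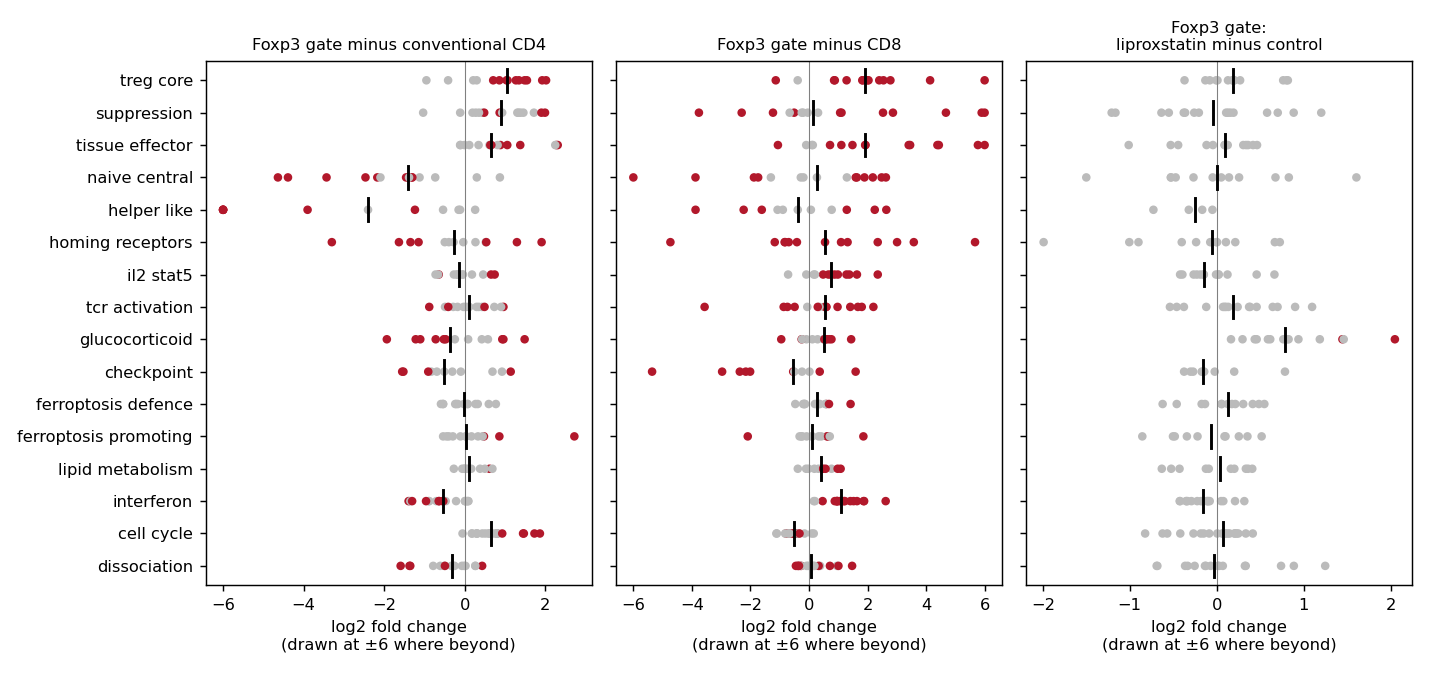
Log2 fold change of each tested gene of 16 lists (1 dot per gene, red where it passed edgeR's test, grey where not, bar at the list's median, values beyond 6 drawn at 6) for the Foxp3 cells against conventional CD4 cells, against CD8 cells, and for liproxstatin against control within the Foxp3 cells. Zfp36l2 and Tsc22d3 of the glucocorticoid list are the red dots among listed genes under treatment, and every gene of that list lies above 0 there. The lists were chosen with earlier results of these data known.

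In the core and suppression lists 0 genes passed the test of treatment as fitted, and some passed under other settings. For the core list 0 of 14 passed, with 10 positive and a median of 0.18. Within it Ctla4 (0.76 ± 0.22), Icos (557, 399, 1032 and 638 CPM, 0.80 ± 0.25) and Izumo1r (152, 185, 342 and 259 CPM, 0.82 ± 0.23) had the largest values (SE, n = 2 per group, edgeR adjusted p = 0.547, 0.700 and 0.547), and their libraries did not overlap. Over the core list the libraries did not overlap for 5 of 14 genes, 4 with liproxstatin higher and 1 with liproxstatin lower, against 29.3% of all genes tested. Ikzf2 stood at 0.18 ± 0.23, Tnfrsf4 at 0.20 ± 0.20 and Tnfrsf18 at -0.08 ± 0.20. For suppression 0 of 16 passed, with a median of -0.05. Il10 was at -1.16 ± 0.27 (edgeR adjusted p = 0.221), while its share of thinned cells lay between 9.24% and 10.7% in all 4 libraries. In control replicates 1 and 2 a single cell held 84.6% and 71.1% of its UMIs. With at least 2 Foxp3 UMIs Il10 stood at -0.483 and did not pass. The costimulatory receptor gene Cd28 read 211, 181, 374 and 301 CPM (0.79 ± 0.23, edgeR adjusted p = 0.547). With the replicate number as a block, Ctla4 (edgeR adjusted p = 0.0113), Icos (0.0154), Izumo1r (0.0465), Cd28 (0.0279) and Il10 (0.0113) passed in the same directions. Ctla4 (0.00181) and Icos (0.00489) also passed without liproxstatin replicate 2, and Ctla4 (0.046) and Il10 (0.0174) without a filter on low counts.

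The pathway that liproxstatin-1 acts on showed no called gene in these cells. For ferroptosis defence 0 of 13 passed with a median of 0.13, and Gpx4 stood at -0.13 ± 0.22 (SE, n = 2 per group, edgeR adjusted p = 1.00). For the ferroptosis-promoting list 0 of 10 passed with a median of -0.07, and the lipid ligase gene Acsl4, at 45.5, 48.7, 59.5 and 42.7 CPM, stood at 0.10 ± 0.31. 0 genes passed in the tissue effector (15 tested, median 0.10), naive and central memory (12, 0.00), helper (4, -0.24), homing (13, -0.05), interleukin 2 signalling (13, -0.15), T cell receptor activation (16, 0.19), checkpoint (9, -0.15), lipid metabolism (10, 0.04), interferon (18, -0.16), cell cycle (21, 0.07) and dissociation stress lists (16, -0.03). With 364 cells in 4 libraries, a p that misses the threshold does not show that these genes were alike in the groups.

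Whether the Foxp3 cells responded otherwise than their neighbours was tested as an interaction. Against conventional CD4 cells 5 of 8398 genes differed in response (0.0595%, edgeR with Benjamini-Hochberg adjustment), 1 with a higher response (0.0119%) and 4 with a lower one (0.0476%), and 665 had an unadjusted p under 0.05 (7.92%). Zfp36l2 had a larger response in the Foxp3 cells, by 1.00 ± 0.18 on the log2 scale (SE, n = 2 per group, edgeR adjusted p = 0.0368), and did not pass without control replicate 1 (1.05, 0.399), control replicate 2 (0.949, 0.447) or liproxstatin replicate 1 (0.723, 0.220), within a range of 2.19e-06 to 0.447 over all alternatives. The other 4, all with negative differences, were the MHC class II genes H2-Ab1, H2-Eb1 and H2-DMb2 and the transcription factor gene Zeb2. H2-Ab1 read 384, 452, 281 and 170 CPM in the Foxp3 cells and 31.6, 65.7, 466 and 349 CPM in the conventional CD4 cells (-3.82 ± 0.26, edgeR adjusted p = 1.39e-07). In the conventional CD4 cells the summed macrophage and monocyte markers moved with them, at 443, 938, 4742 and 2790 CPM, and with the cells rich in other-lineage markers left out H2-Ab1 (-4.03, 0.106) and Zeb2 (-2.12, 0.256) did not pass, while H2-Eb1 (-5.81, edgeR adjusted p = 5.31e-10) and H2-DMb2 (-11.8, 0.00832) did. With equal cell numbers none of the 4 passed (edgeR adjusted p = 0.480 for H2-Ab1, 0.326 for Zeb2, 0.388 for H2-Eb1 and 0.106 for H2-DMb2). In the Foxp3 cells 1 cell held up to 89.3% of a library's H2-Eb1 RNA (control replicate 1). In the conventional CD4 cells 1 cell held up to 72.0% (liproxstatin replicate 2).

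Against CD8 cells 2 genes differed in response (0.0238%), with 277 at an unadjusted p under 0.05. Ramp3, a partner of calcitonin-family receptors, read 27.3, 51.2, 12.7 and 14.2 CPM in the Foxp3 cells and 1.90, 2.92, 5.75 and 8.17 CPM in the CD8 cells (-3.05 ± 0.47, SE, n = 2 per group, edgeR adjusted p = 0.0161), with 50.0% and 56.1% of its control Foxp3 RNA in 1 cell each. It did not pass without control replicate 2 (-2.84, 0.745). H2-Ab1 differed by -1.77 ± 0.22 (edgeR adjusted p = 0.00169) and did not pass without control replicate 2 (-1.70). With doublets left out neither gene passed (H2-Ab1 -1.99, edgeR adjusted p = 0.599, Ramp3 -2.29, 0.595). With the cells rich in other-lineage markers left out H2-Ab1 did not pass (-2.12), while Ramp3 did (-3.27, edgeR adjusted p = 0.00324). For both genes the adjusted p reached 1.00 over all alternatives. Neither Zfp36l2 nor Tsc22d3 was called in this interaction.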

How the data were processed

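RNA of CD45-enriched tumour cells was counted in 4 libraries. Each library's deposited file holds whole-number UMI counts per gene and cell barcode, per the file headers a Cell Ranger 6.1.1 matrix. Cell Ranger 4 and mm10 stand in the submitters' processing notes. The deposited counts cover 32285 genes and barcodes of at least 500 UMIs. Their depth is given in the report.

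Barcodes with at least 200 genes and under 15% mitochondrial UMIs were kept (27447 of 29092). Counts were summed per library and gate (Foxp3, conventional CD4, CD8) and tested with edgeR 4.0.16 (quasi-likelihood, TMM scaling, low-count filter, Benjamini-Hochberg adjustment at 0.05) in R 4.3.3. Gates were compared in 1 fit of the 3 gates with library as block, and treatment in the Foxp3 sums alone. Doublets were scored with Scrublet in scanpy 1.11.5 and the highest scores were called, at 0.8% per 1000 barcodes, and were kept in the main values. Shares were compared by exact permutation. Log2 fold changes of genes with few UMIs depend on edgeR's prior count. The test was checked on simulated data.

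The members and lists were chosen with earlier results of these data known. Named genes were the given markers, all genes past the threshold for treatment with the 10 lowest p, the 15 highest and 10 lowest fold changes between gates (same sign in 4 of 4 libraries, at least 30 UMIs per library on average), the interaction calls, and list members past the threshold or first in their list. Some other list members were named after their values were seen. Alternatives were DESeq2 1.42.0, RLE scaling, no low-count filter, doublets left out, at least 2 Foxp3 UMIs, equal cell numbers, each library left out, a replicate block and, for shares, a 10% mitochondrial limit and thinning. Leaving out cells rich in other-lineage markers was added after seeing the data. A few genes of the lists are counted but not reported here by name.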

Additional observations from a re-analysis of the deposited data

Results flagged for a closer look

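The genes here were picked out because their response to liproxstatin-1 differed between the Foxp3 cells and another T cell gate by a test of the difference itself (edgeR's quasi-likelihood interaction test with Benjamini-Hochberg adjustment, 2 libraries per group). Against conventional CD4 cells the log2 differences in response were 1.00 for Zfp36l2, -3.82 for H2-Ab1, -4.37 for H2-Eb1, -2.61 for Zeb2 and -11.3 for H2-DMb2. The H2-DMb2 value is no bound, since both control libraries of the conventional CD4 cells held 0 UMIs against 40.4 and 25.0 CPM in the liproxstatin libraries, and the Foxp3 cells read 29.6, 33.7, 10.7 and 15.1 CPM. H2-Eb1 read 298, 486, 174 and 171 CPM in the Foxp3 cells and 21.1, 52.3, 510 and 281 CPM in the conventional CD4 cells, and Zeb2 read 84.1, 88.7, 63.4 and 71.1 CPM against 21.1, 25.4, 145 and 98.8 CPM. Against CD8 cells the differences were -1.77 for H2-Ab1 and -3.05 for Ramp3, and neither passed with doublets left out. Single cells held 87.0%, 28.4%, 43.4% and 44.5% of the H2-Ab1 RNA of the Foxp3 cells and 11.1%, 29.5%, 32.9% and 66.3% of that of the conventional CD4 cells, and the part of these cells in the differences was not tested beyond leaving out those rich in other-lineage markers.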

How the results depend on the processing

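Of the named genes' values under the alternatives, none reversed against conventional CD4 cells (252 kept their call, 19 lost it) or CD8 cells (260 kept, 5 lost). For treatment, Ms4a7 turned to -0.0689 with doublets left out. Zfp36l2 ranged from 1.72 to 2.46 and Tsc22d3 from 1.35 to 1.59.

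The counts of called genes moved, and the cause was not tested. For treatment (4) they were 65 without a low-count filter, 16 with doublets left out, 0 with at least 2 Foxp3 UMIs, 2 with equal cell numbers, 7 without other-lineage cells and 28 to 83 with 1 library left out, where the lone library is assumed to vary like the others. With a replicate block the count was 44, and H2-Aa was lost (edgeR adjusted p = 0.371) while Ctla4 (0.0113), Il10 (0.0113) and Klrg1 (0.0121) passed. The numbers pair nothing in the labels, and same-numbered libraries' deviations correlated at 0.202 over 7569 genes, a hint only.

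Leaving out 1 library gave 365 to 753 genes against conventional CD4 cells (849) and 1571 to 2129 against CD8 cells (2461), and equal cell numbers gave 1474 for the latter. The interaction with conventional CD4 cells (5) gave 16 by DESeq2, 93 without the filter, 19 with doublets left out, 13 with 2 Foxp3 UMIs, 16 with equal cells, 10 without other-lineage cells and 5 to 92 with 1 library left out. That with CD8 cells (2) gave 7, 39, 6, 0, 2, 4 and 5 to 14 under the same settings.

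The treatment difference in the share of T cells was -0.731 percentage points after thinning and -0.387 to 1.73 with 1 library left out. The difference in the share of all cells was -0.0227 after thinning and 0.336 to 0.397 with 1 library left out. The few UMIs of the Foxp3 cells, with 42 cells in control replicate 1, limit what changes could be detected.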
